A study of Mus musculus with 2 samples.

Results

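The regions described here are 1610 open chromatin peaks of mouse epidermal basal cells whose ATAC-seq signal was at least 2-fold higher in an ablation library than in a control library. In ATAC-seq a transposase cuts into accessible DNA, and the sequenced insertions pile up where chromatin is open. The deposited table of peaks falls into 3 runs, each sorted by position from the start, and no source used here says what the runs stand for. The 1610 peaks were taken from the third run, called run 3, which held 66679 of 84594 distinct peaks. They are the nuclear peaks of that run with a mean signal of 13.96 or more and a log2 ratio of ablation to control of 1 or more, with 1 added to each signal. They made up 1610 of 65878 run-3 peaks that reached the signal minimum, which is 2.44%, against 31.2% of such peaks in run 1 and 0.264% in run 2, and 4.48% of the 76147 over all runs. Because the ratio chose these peaks, their signals and ratios are a description and no test of a difference.

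The study asked how open chromatin in basal epidermis differs when the tissue expands its clones and becomes more fluid during repair. The ablation library (genotype given as Basal lineage ablation) and the control library (WT) were each made from skin epidermis with K14 lineage tracing, with 1 library per group. K14 is Krt14, a keratin gene whose promoter is active in basal keratinocytes, and both groups carried the tracing. Cells of both groups were sorted as CD34- and Lrig1- with high α6 integrin, and as positive for the tracing reporters YFP, GFP and RFP. No source used here gives the ablating agent, the time after ablation, or the age and number of the animals.

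Basal keratinocytes sit on the basement membrane and renew the epidermis. Their accessible regions fall into promoters, which lie at gene starts and are often open in many cell types, and distal elements in introns and between genes, which include enhancers and differ more between cell states. Transcription factors that open or hold such elements include p63 in basal cells and AP-1 in keratinocytes under stress. In a bulk library, a higher peak from more cells with the site open cannot be told apart from a more accessible site in the same cells.

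The defining basal markers Krt5, Krt14, Krt15, Trp63, Itga6, Itgb4 and Col17a1 all had tested peaks, with summed signals between 406 and 2932 in ablation and between 363 and 3144 in control. None of their tested run-3 peaks, in that order 7, 6, 2, 32, 15, 5 and 14, was among the 1610. Beside the 2.44% of the run, 0 among so few peaks says little. Over all tested peaks these genes ran from 0.785-fold at Col17a1 (0.741 to 0.833) to 1.16-fold at Krt5 (1.09 to 1.22). Krt14 and Krt15 also lay above 1, and Trp63, Itga6 and Itgb4 below it. Krt5 had 1 run-1 peak that was 2-fold higher, whereas Itga6 had 2 peaks and Col17a1 had 1 that were 2-fold lower. Markers of other skin cells were read too, although a gate on the K14 tracing reporters should remove cells outside that lineage. Of these markers, 12 of 14 endothelial, 8 of 11 fibroblast, 7 of 9 melanocyte, 11 of 13 Langerhans or myeloid and 6 of 10 matched T cell genes had a tested peak. Their summed signals spanned 27.2 to 2531 in ablation and 25.4 to 2645 in control for endothelial genes. For fibroblast genes they spanned 22.7 to 1377 in ablation and 8.47 to 1456 in control. Melanocyte genes spanned 18.1 to 1481 in ablation and 40.2 to 1648 in control, Langerhans or myeloid genes 28.1 to 953 in ablation and 13.4 to 1037 in control, and T cell genes 19.0 to 1377 in ablation and 13.4 to 1456 in control. The highest sum of both the fibroblast and the T cell list is Thy1, a surface marker in both lists. Genes with no tested peak included Cdh5 and Emcn of endothelium, Col1a2, Col3a1 and Lum of fibroblasts, Tyr and Kit of melanocytes, Lyz2 and Csf2rb of myeloid cells, and Cd3d, Cd3g and Il2rb of T cells. The part of other cells in the higher peaks was not tested.

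Of the 1610 peaks, 89 overlapped the promoter of a gene, taken as 250 bases before to 50 bases after the gene start by RefSeq, in build GRCm38.p6 (mm10). They met 97 promoters of 93 genes, of which 69 were protein-coding. The promoters that follow are printed in the direction of the gene. The first group shows starts of named list genes that a higher peak met: Hmga2, which encodes an architectural chromatin protein, Btc, which encodes the EGF receptor ligand betacellulin, and Ifit2, which encodes an interferon-induced antiviral protein. Oas1a, an interferon-induced sensor of double-stranded RNA, was added after its letters had been seen. Capitals mark CACCTG on either strand (the E-box of Snai and Zeb repressors, here as CAGGTG) in Btc and the interferon-stimulated response element (GAAA, any 2 bases, GAAA) in Oas1a.
Hmga2, chr10:120476420-120476719, minus strand: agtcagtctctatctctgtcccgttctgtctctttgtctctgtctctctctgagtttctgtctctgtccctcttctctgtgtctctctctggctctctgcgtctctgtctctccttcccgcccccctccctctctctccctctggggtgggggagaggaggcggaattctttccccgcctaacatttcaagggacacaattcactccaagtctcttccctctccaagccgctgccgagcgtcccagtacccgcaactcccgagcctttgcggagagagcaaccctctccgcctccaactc
Btc, chr5:91402945-91403244, minus strand: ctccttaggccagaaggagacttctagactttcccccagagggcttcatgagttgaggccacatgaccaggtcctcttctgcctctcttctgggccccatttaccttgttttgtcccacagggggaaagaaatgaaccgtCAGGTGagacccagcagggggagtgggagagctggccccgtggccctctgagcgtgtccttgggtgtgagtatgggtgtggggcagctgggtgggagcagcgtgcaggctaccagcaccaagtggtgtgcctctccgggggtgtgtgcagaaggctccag
Ifit2, chr19:34550444-34550743, plus strand: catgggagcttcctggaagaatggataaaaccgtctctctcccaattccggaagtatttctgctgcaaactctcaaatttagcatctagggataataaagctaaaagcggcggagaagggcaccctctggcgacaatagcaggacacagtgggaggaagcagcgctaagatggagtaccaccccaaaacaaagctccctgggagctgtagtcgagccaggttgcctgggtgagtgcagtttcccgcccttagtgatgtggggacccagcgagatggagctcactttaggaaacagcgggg
Oas1a, chr5:120907476-120907775, minus strand: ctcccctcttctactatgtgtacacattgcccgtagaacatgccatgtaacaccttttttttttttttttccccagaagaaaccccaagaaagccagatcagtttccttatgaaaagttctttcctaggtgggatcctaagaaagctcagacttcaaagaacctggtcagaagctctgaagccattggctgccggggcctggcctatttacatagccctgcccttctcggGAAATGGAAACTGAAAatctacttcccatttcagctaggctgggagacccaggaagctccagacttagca

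In Oas1a the run in capitals is a pair of overlapping matches of this element that start 20 and 14 bases before the gene start. The match in Btc starts 110 bases before the gene start, and the Hmga2 and Ifit2 windows held none of the motifs searched.

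A further pair of promoters shows the letters TGANTCA, the site bound by AP-1 factors, in capitals. Wfdc11, a gene of the whey acidic protein family, and Gask1b, which encodes a Golgi-associated kinase-like protein, were chosen after their sequences and values had been seen.
Wfdc11, chr2:164674038-164674337, minus strand: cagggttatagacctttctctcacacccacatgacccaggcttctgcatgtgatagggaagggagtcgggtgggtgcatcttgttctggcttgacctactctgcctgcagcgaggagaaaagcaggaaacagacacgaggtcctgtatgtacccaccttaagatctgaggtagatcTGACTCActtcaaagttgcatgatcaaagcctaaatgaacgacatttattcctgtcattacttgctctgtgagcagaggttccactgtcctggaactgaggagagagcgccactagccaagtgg
Gask1b, chr3:79885680-79885979, plus strand: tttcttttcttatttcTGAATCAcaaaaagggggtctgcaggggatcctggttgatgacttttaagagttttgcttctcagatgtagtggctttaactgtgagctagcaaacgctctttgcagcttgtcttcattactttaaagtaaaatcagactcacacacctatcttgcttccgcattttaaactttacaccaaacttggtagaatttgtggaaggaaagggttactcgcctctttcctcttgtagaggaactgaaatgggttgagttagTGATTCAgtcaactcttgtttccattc

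The AP-1 letters start 74 bases before the gene start in Wfdc11, and 234 bases before and 24 bases after it in Gask1b. The higher peak of Gask1b, chr3:79885955-79886758, begins near the end of the printed window. The first match in Gask1b lies before that peak and the second at its edge. TGANTCA stood in 15 of the 97 promoters met by a higher peak, which is 15.5% (8.92 to 24.2, exact binomial 95% interval). It stood in 5.82% of the 14426 promoters met by another tested run-3 peak. Of the 1910 of these whose peak lay in the 5 weaker deciles of signal it stood in 9.37%, which lies within the interval of the 97. Over all 32851 promoters in the table the share was 7.81%. CACCTG stood in 28.9% (20.1 to 39.0) of the 97, against 18.9% of promoters with another run-3 peak, 23.8% of those in the 5 weaker deciles, which lies within that interval, and 20.2% of all. The interferon-stimulated response element was met in 3 of 97 (3.09%), against 2.63% with another run-3 peak, 4.14% of those in the 5 weaker deciles and 3.44% of all. In the same order, GGAATG of TEAD factors stood in 12.4% of the 97, against 12.0%, 14.8% and 14.7%, and TGTGGT of RUNX factors in 13.4%, against 11.9%, 15.1% and 16.8%. The E-box CACGTG stood in 4.12%, against 10.2%, 7.59% and 7.15%. For the interferon, TEAD and RUNX letters the order against other run-3 promoters turned with the match in signal. All motifs were read on both strands, and a match is a string of letters and not a bound site. Any overlap of a peak with a promoter counted, so a match need not lie within the peak. Promoters of 1 gene or of neighbouring genes can overlap and count the same letters more than once. Among the 15 with TGANTCA, the windows of Ccdc33 overlap each other, and that of Vtcn1 overlaps that of a noncoding RNA gene.

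The 97 promoters had fewer CpG pairs than those of other run-3 peaks. Their median ratio of observed to expected CpG was 0.506, against 0.767 at promoters with another tested run-3 peak and 0.384 over the table. Promoters with another run-3 peak in the 5 weaker signal deciles stood at 0.513, next to the 97. Median GC content was 58.0% in the 97, against 61.7% with another run-3 peak and 57.0% for those of lower signal.

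The higher peaks were weak in control. Their signal, in normalized reads, had a median of 52.6 in ablation, with quartiles of 38.1 and 75.3, against a median of 21.2 in control, with quartiles of 14.8 and 31.1. Other tested run-3 peaks had medians of 86.2 in ablation and 84.7 in control. In control, 7.98% of tested run-3 peaks lay below the median of the 1610, whereas in ablation 33.7% lay below it. The higher peaks thus stood in the lowest part of the control range and, in ablation, still below the middle of the run.

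The reads behind these signals were few. A member peak had a median of 58 reads in ablation and 30 reads in control, and as few as 22 in ablation and 8 in control. Reads in nuclear peaks came to 12463908 in ablation and 17056996 in control, and 1 read was worth 0.907 normalized reads in ablation and 0.706 in control. A count of 0 would allow up to 3 reads, or 2.72 normalized reads in ablation and 2.12 in control. The exact 95% interval of the fold lay above 1 for all 1610 peaks, above 1.5 for 835 (51.9%) and above 2 for 148 (9.19%). Such intervals hold counting error alone and take PCR copies as separate molecules. They come from the same reads whose ratio chose the peaks, so these shares are no test of a gain. The spread between animals is not known, since each group had 1 library. Mitochondrial DNA took 31.2% of the reads in peaks in ablation and 7.31% in control, and its part in these results was not tested.

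The log2 ratios ran close to the threshold. Their quartiles were 1.08, 1.18 and 1.35, and the highest was 2.87, in a peak of the body of Myo3a with 58.0 in ablation and 7.06 in control (64 and 10 reads), named after its values were seen. With 1 added to each signal, at least 3-fold were 160 peaks (9.94%) and at least 4-fold were 28 (1.74%). Folds printed for single peaks and genes carry no added 1. Just inside the threshold lay peaks near Alpl, Mras and Olig1, each with 23.6 in ablation and 11.3 in control (26 and 16 reads). Just outside it lay peaks near Chd5, Fblim1 and Tmem192, each with 36.3 in ablation and 17.6 in control (40 and 25 reads). Without the added 1, each of these was 2.06-fold higher. The counting intervals of the folds overlapped across the threshold, with 1.08 to 4.17 inside and 1.22 to 3.54 outside.

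**Figure D1:**
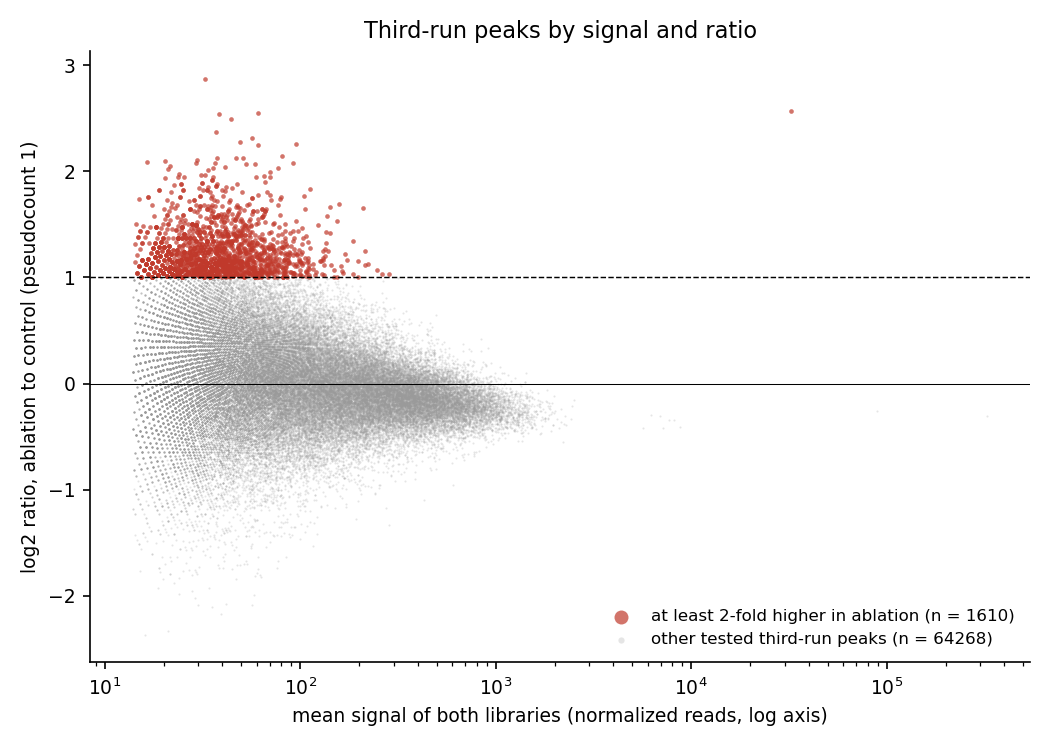
Log2 ratio of ablation to control (vertical axis) against the mean signal of both libraries in normalized reads (log axis) for tested run-3 peaks, with the 1610 peaks at or above a log2 ratio of 1 in red. The red points crowd at low signal, and 1 point stands alone at the far right, with a mean signal of 32412 normalized reads.

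The share of run-3 peaks that were 2-fold higher depended on signal. By deciles of mean signal, from the weakest to the strongest, it was 4.89%, 5.66%, 5.49%, 3.99%, 2.37%, 1.37%, 0.455%, 0.167%, 0.0304% and 0.0152%. The 5 weakest deciles held 1476 of the 1610 peaks and the 5 strongest held 134.

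**Figure D2:**
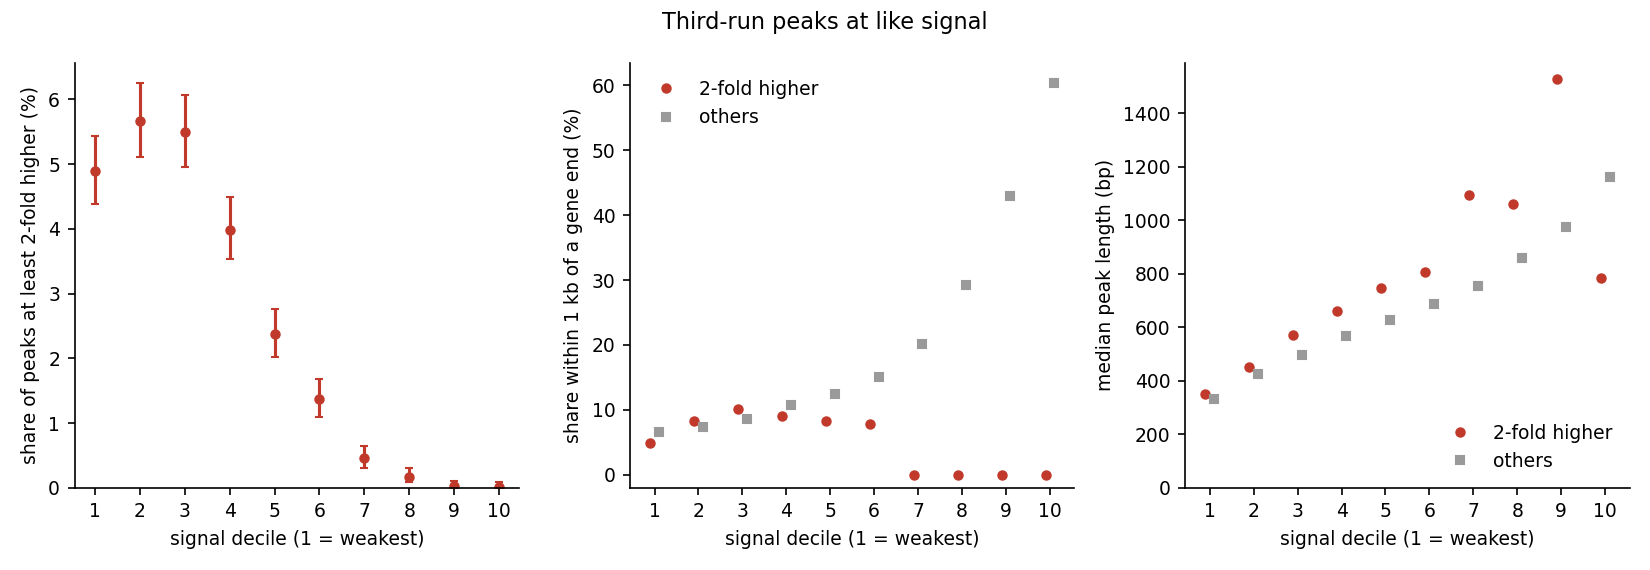
Run-3 peaks by decile of mean signal (horizontal axis, weakest at 1): the share in percent that was 2-fold higher with exact binomial 95% intervals (left), and the percent within 1 kb of a gene end (middle) and the median length in bp (right) of the 2-fold higher peaks in red and the others in grey. The share of 2-fold higher peaks was 4.89% in the weakest decile and 0.0152% in the strongest.

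The 1610 peaks lay mostly away from gene ends, within 1 kb of which lay 128 of them, or 7.95% (6.68 to 9.38). Among other tested run-3 peaks the share was 21.7%, and 9.43% when these were weighted to the same deciles of signal. In the 5 weaker deciles the share was 8.20% of the higher peaks and 9.18% of the others. In the 5 stronger deciles it was 7 of 134, or 5.22% (2.13 to 10.5), against 33.6%. This pool is not matched on signal, since 90 and 30 of the 134 lay in deciles 6 and 7, while the others reached 60.4% in decile 10. In decile 6 the share was 7.78% of the higher peaks and 15.1% of the others, and in decile 7 it was 0 against 20.2%. At low signal the higher peaks thus differed little from their neighbours in signal. Among stronger peaks, where there were few, a gap remained that was smaller than the pooled values. Gene bodies held 704 higher peaks (43.7%), against 40.9% of the others and 46.7% of the others at matched signal, so that the order turned with the match.

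Intergenic peaks numbered 778, or 48.3% (45.9 to 50.8), against 37.4% of the others and 43.9% of the others at matched signal. More than 50 kb from any protein-coding gene lay 340 peaks, or 21.1% (19.1 to 23.2), against 12.2% of the others and 15.2% at matched signal. The 701 run-3 peaks that were at least 2-fold lower in ablation had like shares, 4.85% at gene ends, 48.1% intergenic and 23.4% more than 50 kb from a gene. A position away from genes was therefore shared by 2-fold higher and 2-fold lower peaks.

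The median length of the higher peaks was 544 bp, with quartiles of 396 and 705, against 660 bp for the others. In the 5 weaker deciles the order was turned, with 520 bp for the higher peaks and 473 bp for the others. In the stronger deciles the medians were 904 bp for the higher peaks and 879 bp for the others. Within decile 6 they were 805 bp for the higher peaks and 686 bp for the others, and within decile 7 1093 bp and 754 bp. The 1790 peaks of run 1 that were at least 2-fold higher had a median of 347 bp and 6.31% at gene ends. By chromosome, the share of tested run-3 peaks that were 2-fold higher ran between 1.88% and 3.29% on autosomes, and it was 1.47% on the X chromosome (19 of 1296). On the Y chromosome 2 of 11 were 2-fold higher, or 18.2% (2.28 to 51.8).

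Higher peaks tended to have higher neighbours, a description from the same pair of libraries. Another tested run-3 peak lay within 10 kb of 987 of the 1610, and the nearest one had a median log2 ratio of 0.36, with 76.4% above 0. For the other run-3 peaks the nearest neighbour had a median of -0.04, with 45.6% above 0. In the 5 weaker deciles the medians were 0.35 for neighbours of higher peaks and 0.00 for neighbours of the others. A second 2-fold higher run-3 peak lay within 10 kb of 10.9% of the higher peaks, against 2.33% of the others, and a 2-fold higher run-1 peak within 10 kb of 9.19%, against 2.76%.

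Chaining higher peaks that lay within 50 kb of each other gave 1362 loci, and 1164 of the peaks (72.3%) stood alone. At least 2 higher peaks were found in 198 loci, at least 3 in 41 and at least 4 in 7. A locus of 5 at Slc24a4 and Rin3, chr12:102261769-102328661, held 7 tested run-3 peaks, all with ratios above 1. Slc24a4 encodes a sodium, calcium and potassium exchanger and Rin3 an exchange factor for Rab5 GTPases. A second locus of 5, chr9:58055441-58169966, held 14 tested run-3 peaks, all with ratios above 1, and covers Stra6, the receptor of retinol-binding protein, with Ccdc33 and Islr. Loci of 4 were found at Ccl2, at Mb and Apol6, at Parvb and Shisal1, at Pdgfa, and at Wnt7a. These bounds were set by the higher peaks themselves. Outside them, 1 of the 4 tested run-3 peaks of Slc24a4 was at least 2-fold lower, with a log2 ratio of -1.12.

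The strongest of the 1610 stood apart from all the rest. It lay at chr1:24612395-24613180, between genes and 24473 bp from Col19a1, with a signal of 55448 in ablation and 9377 in control, or 5.91-fold (5.80 to 6.03). The next strongest had 383 in ablation and 187 in control. The 3 mitochondrial peaks of the table together were 5.41-fold higher, next to the value of this peak. Nuclear genomes hold copies of mitochondrial DNA, and whether reads of this peak came from mitochondrial DNA was not tested. With this peak the 1610 held 1.39% of reads in nuclear peaks in ablation and 0.426% in control, and without it 0.898% in ablation and 0.349% in control.

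Of the other members with high signal, the next was at chr13:42477562-42479382, 169572 bp from Edn1, which encodes the vasoactive peptide endothelin. Spsb1, an adaptor of a ubiquitin ligase, had a peak 19254 bp away with 351 in ablation and 171 in control, or 2.05-fold (1.74 to 2.41). Kcnn3, a calcium-activated potassium channel, had one in its body with 335 in ablation and 159 in control. Runx2, a Runt-family transcription factor best known from bone, had one in its body at chr17:44500198-44500942 with 305 in ablation and 139 in control, or 2.19-fold (1.83 to 2.63). These strong members all stood near the 2-fold threshold.

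The highest ratios among members of at least the median signal lay in weak control peaks. Tie1, an endothelial receptor tyrosine kinase, had a peak in its body at chr4:118472442-118473070 with 104 in ablation and 16.9 in control (115 and 24 reads), or 6.16-fold (3.94 to 10.0). Slc24a4 had one with 66.2 in ablation and 10.6 in control (73 and 15 reads), or 6.26-fold (3.56 to 11.7). A peak 51929 bp from Pthlh, the parathyroid hormone-like hormone made by keratinocytes, had 76.2 in ablation and 12.7 in control, or 6.0-fold (3.57 to 10.6). Control reads were between 15 and 49 in all of the 15 highest apart from the chromosome 1 peak, so the intervals were wide. Others lay in or near Lgi2 (5.19-fold), Rilpl1 (5.09-fold), Scfd2 (4.92-fold), Shisal1 (4.89-fold), Nup188 (4.55-fold) and Adamts7 (4.30-fold), and beyond 50 kb from Fst (4.60-fold), Pkhd1 (4.55-fold), Sema6d (4.36-fold) and Tsc22d1 (4.35-fold). Adamts7 is a secreted metalloprotease and Nup188 a nuclear pore protein.

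At gene ends the strongest higher peaks were modest in ratio with 1 exception. Ankk1, a kinase gene, had 152 in ablation and 69.9 in control, Hoxd8, a homeobox factor, 144 in ablation and 69.2 in control, and Hsph1, a heat shock protein, 139 in ablation and 62.8 in control. The ratios of these were 2.18-fold, 2.09-fold and 2.21-fold. St3gal3, a sialyltransferase, reached 2.70-fold with 130 in ablation and 48.0 in control, and Calcoco2, an autophagy receptor, 2.05-fold with 112 in ablation and 54.3 in control. Shisal1 was the exception, with 132 in ablation and 28.9 in control at chr15:84380160-84380747, or 4.55-fold (3.19 to 6.60).

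Assigned to every protein-coding gene they overlap, or else to the nearest within 50 kb, 1270 of the peaks fell to 1063 genes. Of these genes 884 had 1 higher peak, 144 had 2, 30 had 3, 4 had 4 and 1 had 5. The gene with 5 was Lipc, which encodes hepatic lipase, with 5 of its 13 tested run-3 peaks. Those with 4 were Nek6 (4 of 5), Ccl2 (4 of 6), Chst11 (4 of 10) and Wnt7a (4 of 10). Of the 35 genes with at least 3, 19 also had a 2-fold higher peak in run 1. Over all tested run-1 peaks 31.2% were 2-fold higher, and no like share over other genes was taken. The count of 19 is therefore no sign of a link between the runs.

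Nek6 encodes a kinase that acts in mitosis. Its 4 higher peaks had 151, 122, 52.6 and 59.9 in ablation, against 70.6, 36.0, 14.1 and 27.5 in control. The ablation value was above the control value in each, with ratios of 2.13-fold, 3.40-fold, 3.73-fold and 2.18-fold, and 3 of them lay in the gene body. Chst11, a sulfotransferase that builds chondroitin sulfate, had 50.8, 65.3, 115 and 132 in ablation, against 22.6, 20.5, 46.6 and 54.3 in control, all in the gene body.

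Ccl2 encodes a chemokine that draws monocytes into tissue. All of its 4 higher peaks lay between genes, 2222, 20055, 23366 and 30790 bp away, with 105, 99.8, 64.4 and 87.1 in ablation, against 40.2, 45.9, 26.1 and 38.1 in control. The nearest of them, chr11:82032884-82033355, was 2.62-fold higher. Ccl1, a chemokine of the same cluster that attracts T cells and monocytes, had 3 higher peaks of 7 tested in run 3. They had 51.7, 49.9 and 143 in ablation, against 19.8, 13.4 and 52.2 in control, at 8370, 13987 and 15012 bp. Both chemokine genes thus had their higher peaks outside the genes themselves.

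Wnt7a encodes a Wnt ligand. Its 4 higher peaks had 79.8, 206, 73.5 and 129 in ablation, against 37.4, 102, 23.3 and 59.3 in control, and 3 of them lay 14075 to 30875 bp outside the gene. The fold was highest, 3.15-fold, at chr6:91349049-91349906. Lipc had 90.7, 74.4, 41.7, 34.5 and 63.5 in ablation, against 31.1, 30.3, 12.7, 14.8 and 24.7 in control. The ratios of Lipc peaks ran between 2.33-fold and 3.28-fold, in the gene body for 3 and 46489 and 49388 bp away for the other pair.

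**Figure D3:**
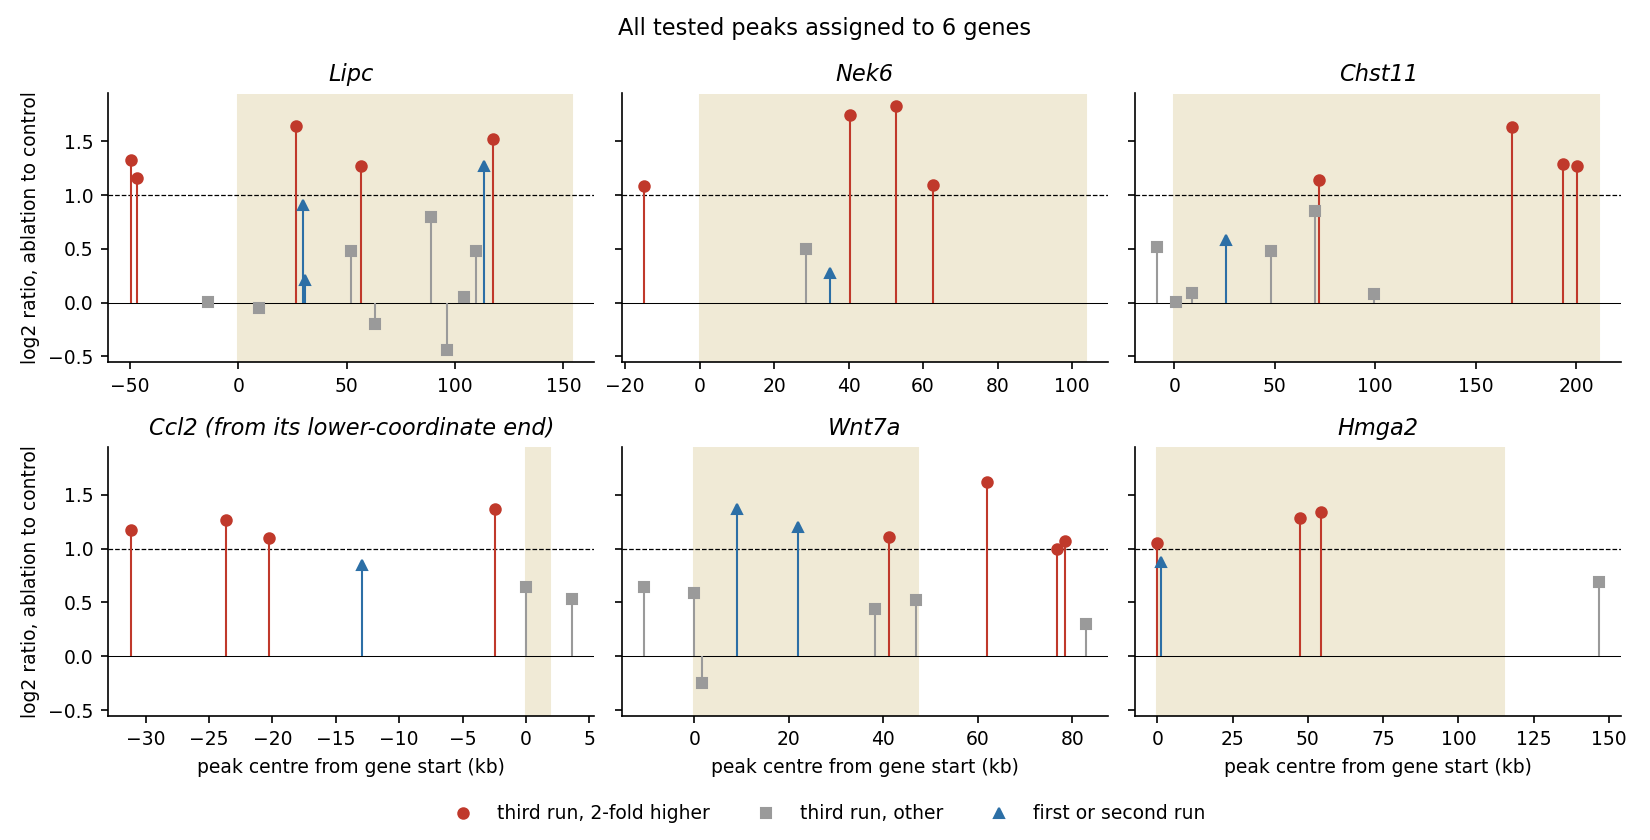
Log2 ratio of ablation to control (vertical axis) of every tested peak assigned to Lipc, Nek6, Chst11, Ccl2, Wnt7a and Hmga2, by distance of the peak's centre from the gene start in kb (horizontal axis), with the gene body shaded and the 2-fold line dashed. Distances run in the direction of the gene, except for Ccl2, which is drawn from its lower-coordinate end, and most of the red 2-fold higher peaks lie away from the gene start.

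A pair of genes had all 3 of their tested run-3 peaks among the 1610, C3 and Shisal1, which are named after their values were seen. C3 encodes the central component of complement. Its peaks had 47.2, 50.8 and 75.3 in ablation, against 14.1, 22.6 and 33.2 in control, or 3.34-fold, 2.25-fold and 2.27-fold. Shisal1 encodes a shisa-like membrane protein, and its peaks had 159, 132 and 68.0 in ablation, against 32.5, 28.9 and 31.8 in control.

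**Figure D4:**
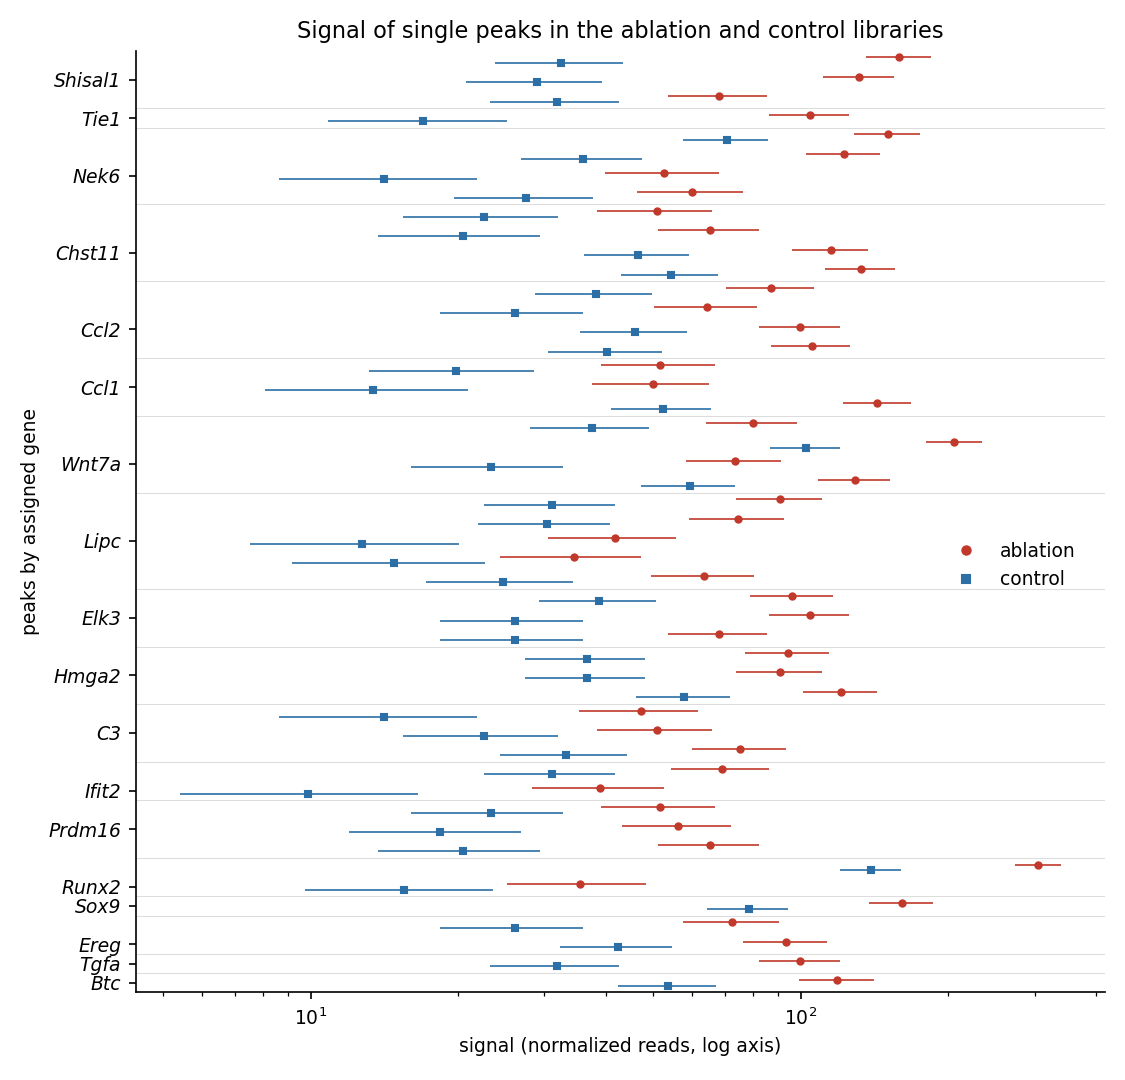
Signal in normalized reads (log axis) of single 2-fold higher peaks in ablation (red) and control (blue), grouped by the gene to which they were assigned, with exact 95% intervals for counting error. Most control values lie between 10 and 60, and red lies right of blue in each peak by the rule that chose them.

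Gene lists of epidermal biology were read against the 2.44% of tested run-3 peaks that were 2-fold higher. Of the 3143 run-3 peaks assigned to genes of the 30 lists, 96 (3.05%) were among the 1610. Intervals on these shares are exact binomial and treat peaks as independent, which peaks of 1 gene are not. The lists had been chosen with earlier results of these data known, so their counts describe these libraries only. List medians given as log2 ratios stand beside -0.03 for all tested run-3 peaks. Dividing each library by its total over the table shifts the ratios by -0.34 at the median. Every list median quoted here then lay below 0, as did that of all run-3 peaks, at -0.36. Division by the total over nuclear peaks shifts the ratios by 0.09 at the median. Folds over all tested peaks of a gene are given as deposited. Where such a fold lies near 1, its side of 1 can turn with the scaling.

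Regulators of epithelial-mesenchymal transition, which loosen epithelial contacts, had 5 of 33 peaks (15.2%, 5.11 to 31.9) and a median log2 ratio of 0.31. Of these peaks 3 belonged to Hmga2, with 94.3, 90.7 and 121 in ablation, against 36.7, 36.7 and 57.9 in control. The third of these covers the gene start at chr10:120475717-120477214, the promoter printed above. Snai1, a repressor of E-cadherin, had 1 peak of 109 in ablation and 53.6 in control, 32060 bp away, and the other belonged to Cdh2, or N-cadherin. The basal epidermis list, with keratins, integrins and p63, had 1 of 173 (0.578%, 0.0146 to 3.18), a weak peak of Dst, the hemidesmosome linker dystonin, with 21.8 in ablation and 7.76 in control.

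Interferon response genes had 4 of 24 peaks (16.7%, 4.74 to 37.4), with a median log2 ratio of -0.02, so that the rest of the list did not stand higher than the run. Ifit2 had both of its tested run-3 peaks, at 68.9 and 39.0 in ablation, against 31.1 and 9.88 in control. Oas1a had its single peak, over the gene start, at 42.6 in ablation and 16.2 in control, or 2.63-fold. Irf1, a transcription factor of the interferon response, had 1 of 12, at 59.9 in ablation and 28.2 in control, and stood at 0.994-fold over all its tested peaks. Chemokine and NF-kB genes had 5 of 144 (3.47%), 4 at Ccl2 and 1 at Nfkb1. Wound keratins and alarmins had 1 of 21, over the start of Lcn2, which encodes the iron-chelator carrier lipocalin, at 40.8 in ablation and 19.1 in control.

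Genes of the upper follicle and sebaceous gland had 7 of 52 peaks (13.5%, 5.59 to 25.8) and a median log2 ratio of 0.13. Scd1, a fatty acid desaturase of sebocytes, had 84.4 and 20.9 in ablation, against 25.4 and 7.76 in control, both between genes. Over all 11 of its tested peaks Scd1 summed to 1882 in ablation and 1857 in control, or 1.01-fold (0.957 to 1.07). Pparg, a nuclear receptor of lipid synthesis, had 40.8 and 55.3 in ablation, against 16.9 and 26.8 in control. Lrig1, a brake on EGF receptor signalling and the surface marker excluded by the sort, had 28.1 and 150 in ablation, against 13.4 and 57.2 in control. The remaining peak belonged to Mgst1. Hair follicle stem cell genes had 7 of 137 (5.11%, 2.08 to 10.2), 2 of them at Gli2. Sox9, a follicle stem cell factor, had 161 in ablation and 78.3 in control at a peak 23056 bp away, or 2.05-fold. Tcf7l2, Runx1, Nfatc1 and Fgf18 had 1 higher peak each. Over all tested peaks Sox9 stood at 1.82-fold and Runx1 at 1.19-fold. Gli2 (0.972-fold, 0.934 to 1.01) and Fgf18 (0.933-fold, 0.834 to 1.04) had counting intervals that included 1. That of Tcf7l2 (0.950-fold, 0.902 to 1.00) ended at 1.00, and Nfatc1 (0.946-fold, 0.910 to 0.982) lay below 1.

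EGF ligands and receptors had 8 of 144 peaks (5.56%, 2.43 to 10.7). Ereg, which encodes the ligand epiregulin, had 72.6 at its gene end and 93.4 at 4451 bp in ablation, against 26.1 and 42.3 in control. Btc had 119 in ablation and 53.6 in control over its start, the promoter printed above, and Tgfa had 1 higher peak. Nrg1 and Lrig1 had 2 each. Over all tested peaks Ereg stood at 1.54-fold (1.39 to 1.71), Lrig1 at 1.20-fold (1.13 to 1.26) and Nrg1 at 1.07-fold (1.02 to 1.12). The intervals of Btc (1.18-fold, 0.991 to 1.41) and Tgfa (1.05-fold, 0.997 to 1.10) included 1. MAPK feedback genes, which act below these receptors, had 0 of 97, with an upper bound of 3.73%. AP-1 subunit genes had 2 of 93 (2.15%), at Batf3 and Fosl2. Over all tested peaks Batf3 stood at 1.33-fold (1.18 to 1.48). Fosl2 stood at 0.839-fold (0.807 to 0.873), with 1 peak at least 2-fold lower.

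Transcription factors of epithelia had 16 of 348 peaks (4.60%, 2.65 to 7.36) at 9 genes. Elk3, an ETS factor of the serum response, had 96.1, 104 and 68.0 in ablation, against 38.8, 26.1 and 26.1 in control. Its peak at chr10:93271748-93272458 was 3.99-fold higher. Prdm16, a zinc-finger regulator of cell fate, had 51.7, 56.2 and 65.3 in ablation, against 23.3, 18.3 and 20.5 in control, all within the gene. Runx2, described above, had a second, weaker peak of 35.4 in ablation and 15.5 in control. Rora had 2 higher peaks, with 54.4 and 34.5 in ablation, against 24.0 and 7.76 in control. Over all tested peaks Elk3 stood at 1.81-fold, Prdm16 at 1.72-fold and Runx2 at 1.21-fold. Rora stood at 0.819-fold (0.794 to 0.845) over its 62 tested peaks, of which 3 were at least 2-fold lower. The median log2 ratio of the list was -0.02.

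Extracellular matrix genes had 6 of 91 peaks (6.59%, 2.46 to 13.8). Nid1, the basement membrane linker nidogen, had 54.4 and 27.2 in ablation, against 24.7 and 12.7 in control. Tnc, the wound matrix protein tenascin-C, had 29.9 and 41.7 in ablation, against 12.7 and 19.8 in control, and Loxl2 and Col4a1 had 1 each. Over all tested peaks Nid1 stood at 1.82-fold (1.43 to 2.33). Tnc stood at 1.16-fold (1.07 to 1.26), with 1 peak at least 2-fold lower. Wnt pathway genes had 5 of 153 (3.27%), 4 of them at Wnt7a and 1 at Nkd1, a feedback inhibitor. Axon guidance genes had 8 of 233 (3.43%), with 3 at Slit3 and 2 at Robo2. Over all their tested peaks both genes were below 1 as deposited, Slit3 at 0.936-fold (0.892 to 0.983) and Robo2 at 0.924-fold (0.862 to 0.990). Granular and cornified layer genes had 3 of 62 (4.84%), at Alox12b, Tgm3 and Rptn.

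Several lists lay at or below the share of the run. Integrins and focal adhesion had 1 of 144, adherens junction and desmosome 2 of 131, and YAP and TEAD genes 1 of 108. TGF-beta and BMP genes had 2 of 197, spinous differentiation 1 of 101, glycolysis and hypoxia 2 of 132, cell cycle 2 of 103 and proteases of migration 2 of 87, both at Adamts7. Notch pathway genes had 0 of 97. Of the marker lists of other cells, some lay above the share of the run, with wide intervals. Endothelial genes had 4 of 67 (5.97%, 1.65 to 14.6), 1 each at Tie1, Vwf, Flt1 and Erg. Over all tested peaks endothelial genes ran from 0.646-fold at Tek to 2.36-fold at Tie1. Langerhans or myeloid genes had 1 of 26 (3.85%, 0.0973 to 19.6), at Csf1r. Fibroblast genes had 0 of 22, melanocyte genes 0 of 19 and T cell genes 0 of 15.

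**Figure D5:**
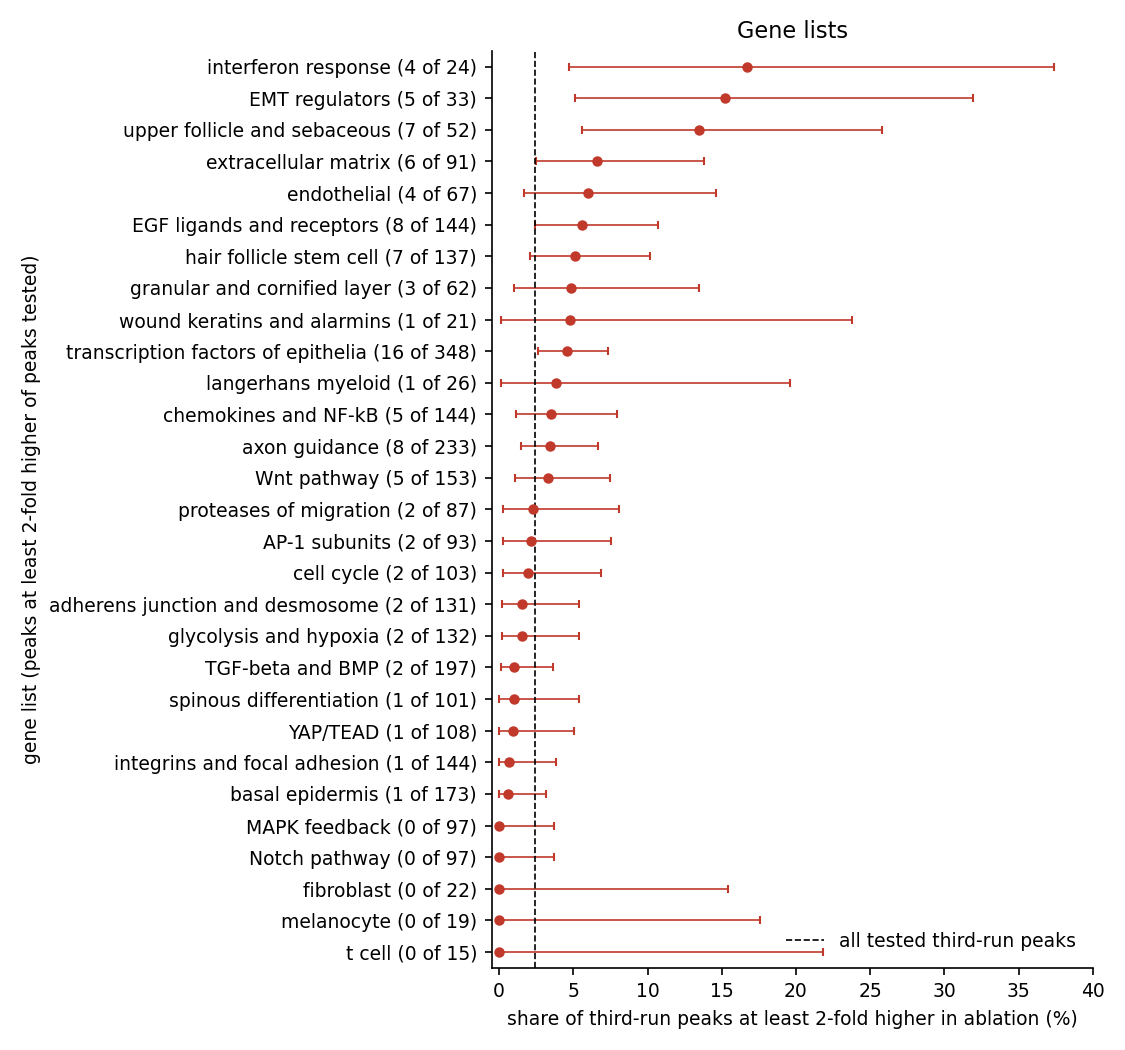
Share in percent of tested run-3 peaks assigned to each gene list shown that were 2-fold higher in ablation, with exact binomial 95% intervals, beside the 2.44% of all tested run-3 peaks (dashed line). Interferon response (16.7%), epithelial-mesenchymal transition (15.2%) and upper follicle and sebaceous genes (13.5%) lie highest, each with a wide interval.

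The choice of scaling decided how many run-3 peaks counted as 2-fold higher. As deposited, 1610 were higher and 701 lower, so that 69.7% of those past 2-fold were higher. Divided by the total over nuclear peaks the numbers were 2224 higher and 494 lower (81.8%), and after division by the total over the table they were 452 higher and 2783 lower (14%). With the ratio centred along signal they were 1080 higher and 1066 lower (50.3%). The lists with the highest shares held, by the table total, 2 of 24 interferon, 1 of 33 epithelial-mesenchymal and 3 of 52 upper follicle peaks. These stand beside 452 of all 65878 tested run-3 peaks under that scaling. In the same order the lists held 5, 6 and 8 by the nuclear total, beside 2224 of all. With centring along signal they held 3, 3 and 4, beside 1080 of all.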

How the data were processed

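Open chromatin was measured by ATAC-seq in 1 ablation and 1 control library. The submitters' processing notes name build mm10 and, with no role or setting, MACS2 2.1.0.20151222, HTSeq, Picard, Trimmomatic and Bowtie2 2.3.4.2. The authors deposited 1 table of signal per peak and library, and no source used here says how its factors or its selection of peaks were made. Every value was a whole multiple of 1 step per library, within 0.1 of a read (100% of values), so the signal is reads divided by 1 factor and whole reads were recovered. With 1 library per group there was no count test and no p-value. Column names gave the samples: the control column carries another number than the title of its sample, and the column named Exp was taken as ablation because the series has 1 sample that is not a control. Columns left unused numbered 0.

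Exact repeats of a peak were merged. Log2 ratios used a pseudocount of 1 and peaks with a mean signal at or above the 10th percentile (13.96). Folds printed for peaks and genes carry no pseudocount, and their 95% intervals come from the recovered reads by the Clopper-Pearson method. Genes came from a RefSeq table and promoters from a RefSeq sequence table, both of GRCm38.p6; 458 of 461 list genes matched, 1 through an older name. Named were the 15 highest ratios among members of at least median signal, genes with at least 4 member peaks, up to 3 genes per list, the 8 strongest gene-end members, the 5 strongest members and 3 peaks on each side of the threshold, with predicted genes left out; genes named for their place in a locus, a count or a comparison were added after their values were seen. The members, lists and this rule were chosen with earlier results of these data known. Motifs were read in promoters only, since no genome sequence was used here; the interferon motif was added after seeing the data. Steps were tested on simulated reads. Some results that the rule names are not reported here. Alternatives covered scaling, pseudocount, filter, threshold, run, counting error, gene assignment and, added after seeing the data, leaving out the strongest member. Software was matplotlib 3.10.9, statsmodels 0.14.6, scipy 1.17.1, pandas 2.3.3 and numpy 2.4.6 under Python 3.11.15.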

Additional observations from a re-analysis of the deposited data

Results flagged for a closer look

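The mitochondrial genome, which lies outside the nuclear peaks whose ratios are described above, took 31.2% (31.2 to 31.3) of the reads in peaks in the ablation library, against 7.31% (7.30 to 7.32) in the control library, so that this signal was above the control level. It lay on 3 peaks, its fold stands beside that of the chromosome 1 peak, and it enters the scaling by the total over the table. Its part in the nuclear results was not tested.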

How the results depend on the processing

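The number of higher run-3 peaks, 1610, was 452 by the table total, 1041 with a pseudocount of 5, 6500 at 1.5-fold and 160 at 3-fold. Of the 1610, the same peaks passed in 452, 1071 and 1041 cases by the table total, with centring along signal and with a pseudocount of 5. The median log2 ratio of the peaks called was 1.19 by the nuclear total, 1.16 with a pseudocount of 5, 0.80 at 1.5-fold and 1.75 at 3-fold. Peaks of the gene lists, 96, numbered 34 by the table total, 63 with a pseudocount of 5, 313 at 1.5-fold and 16 at 3-fold. Genes with at least 3 higher peaks, 35, numbered 73 by the nuclear total, 3 by the table total, 23 with centring along signal, 23 with a pseudocount of 5, 430 at 1.5-fold, 0 at 3-fold and 22 with the nearest gene within 10 kb. The share at gene ends was 5.75% by the table total, 10% at 1.5-fold and 5% at 3-fold, and the intergenic share 45% at 1.5-fold. The median length was 558 bp by the table total, 586 with centring along signal, 587 with a pseudocount of 5, 595 with the filter at the 25th percentile and 588 at 3-fold. The cause of these shifts was not tested beyond the settings themselves, which call more or fewer peaks. Leaving out the strongest peak or dropping the filter left each of these results within the spread or ratio used to compare settings. Requiring a counting interval above 1 could remove none, since the 2-fold rule had left all 1610 above it. No paired analysis was possible because there was 1 library per group. Depth limits single peaks, which had a median of 58 reads in ablation and 30 in control, and with 1 library per group a difference between libraries and a difference between conditions cannot be told apart.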
